A study of Mus musculus with 17 samples.

Results

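Bone marrow progenitors of mice that lacked both copies of Tet2 and had lost, on 1 copy of Spi1, the enhancer known as the upstream regulatory element (URE) were compared with wild-type (WT) progenitors by RNA sequencing. The URE het Tet2 KO group (genotype UREΔ/+;Tet2-/-), called compound mutants below, held 3 libraries, all labelled AML (acute myeloid leukaemia), and the WT group (URE+/+;Tet2+/+) held 3 libraries, all labelled Normal. These 6 libraries were taken by the genotype in the labels from a series of 17, and the other 11 enter the shared estimate of spread. Among those, 3 URE het (UREΔ/+;Tet2+/+) and 3 Tet2 KO (URE+/+;Tet2-/-) libraries, all labelled Normal, have their values set beside those of the compound mutants. All libraries came from cells sorted by flow cytometry for the cKit receptor and against lymphoid and erythroid markers, called haematopoietic stem and progenitor cells (HSPC) in the labels. Polyadenylated RNA was sequenced by a low-input method. The controls were stated to be matched for age, with no age, sex or litter per library, and nothing states whether the alleles were deleted in the germline or in blood cells alone. Disease state followed genotype in all 6 libraries, so leukaemia and compound genotype cannot be told apart. The labels do not state that the libraries were from different mice, and the p-values then measure the spread between these libraries, which may be technical.

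Spi1 encodes PU.1, an ETS transcription factor whose level steers progenitors towards granulocytes, monocytes, dendritic cells or B cells, and the URE is the distal enhancer that sets much of its output in blood cells. Tet2 encodes an enzyme that oxidises methylated cytosine and so opens the way to DNA demethylation. Its loss is a frequent early lesion in clonal haematopoiesis of ageing humans. Low PU.1 output impairs myeloid differentiation in mice. In bulk RNA fewer cells of a type and less RNA per cell cannot be told apart, which holds for every level below.

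Counts over genes came to 23.5, 38.3 and 37.5 M in the 3 compound libraries and to 29.9, 33.6 and 29.3 M in the 3 WT libraries. Levels are given as CPM, gene counts per 1 M counts of the library adjusted by the trimmed mean, in the order of replicates 1, 2 and 3 of each group. Fold changes come from edgeR's quasi-likelihood test of URE het Tet2 KO over WT, given as log2 fold change ± standard error (SE). The p-values were adjusted by Benjamini-Hochberg over the 19951 genes with enough counts to test. A gene is said to have risen or fallen where its adjusted p lay under 0.05.

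Kit, the receptor that defined the sort, stood at 117, 151 and 135 CPM in compound mutants and at 137, 121 and 161 CPM in WT (log2 -0.054 ± 0.21, adjusted p = 0.92), and the groups overlapped. Of the other progenitor genes, Myb, a transcription factor of immature blood cells, ran at 375, 479 and 501 CPM in compound mutants and at 470.4, 418 and 479.8 CPM in WT (log2 -0.014 ± 0.27, adjusted p = 0.985). Mpo, the myeloperoxidase of the granulocyte and monocyte lineage, ran at 7736, 6802 and 6101 CPM in compound mutants and at 6500.0, 4419 and 3573 CPM in WT (log2 0.51 ± 0.38, adjusted p = 0.491). These 3 genes were well expressed in all 6 libraries, and the other 3 of the 6 progenitor markers, given next, had negative fold changes without a call. Cd34, a surface sialomucin of stem and progenitor cells, was at 10.1, 0.545 and 0.393 CPM in compound mutants and at 68.9, 76.4 and 145 CPM in WT. The groups did not overlap for Cd34, yet the call was missed (log2 -4.74 ± 1.42, adjusted p = 0.0799). Gata2, a transcription factor of stem and early progenitor cells, was at 0.930, 0.172 and 0.998 CPM in compound mutants and at 7.50, 7.66 and 9.32 CPM in WT (log2 -3.55 ± 1.11, adjusted p = 0.089), and Flt3, a receptor of early progenitors, at 23.4, 67.5 and 8.95 CPM in compound mutants and at 51.7, 63.5 and 66.3 CPM in WT (log2 -0.86 ± 0.52, adjusted p = 0.385). The 6 markers had a median log2 fold change of -0.46, and 5 of them were negative. The summed level of 5 lymphoid markers ran from 0.254 to 5.23 CPM in compound mutants and from 5.15 to 8.92 CPM in WT, and that of 5 erythroid markers from 1.66 to 11.5 CPM in compound mutants and from 9.38 to 27.7 CPM in WT. The 5 monocyte and macrophage markers summed to 433, 2266 and 2255 CPM in compound replicates 1, 2 and 3 and to between 450.4 and 559 CPM in WT, with C1qa, a tissue macrophage marker, at 0 in all 3 compound libraries and in WT replicate 1. Most of each sum was Ly6c2, given below. Of the 4 markers tested, 2 had negative fold changes, and the median was -0.20. The 6 stromal and endothelial markers summed to 1.24 to 8.08 CPM in compound mutants and to 3.46 to 7.81 CPM in WT.

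Spi1 was low in compound replicates 2 and 3 and at the WT level in replicate 1. Spi1 (ENSMUSG00000002111.8, chr2:91082390-91115756 in GRCm38) stood at 98.6, 7.83 and 12.2 CPM in compound mutants and at 106, 122 and 55.8 CPM in WT. Replicate 1 fell inside the WT range, and the difference did not pass (log2 -1.26 ± 0.73, adjusted p = 0.371). Leaving out compound replicate 1 gave -3.24 and an adjusted p of 0.00431. Over all alternatives the adjusted p ran from 0.000645, with limma voom, to 0.996, for replicate 1 alone against WT. Tet2 (ENSMUSG00000040943.12, chr3:133463679-133545139) had 112, 113 and 176 CPM in compound mutants and 133, 108 and 117 CPM in WT, with overlapping groups (log2 0.16 ± 0.22, adjusted p = 0.738). In the libraries of Tet2 KO alone it had 80.2, 81 and 86.2 CPM, below all 6 libraries just given. The counts cover whole genes, with exons that may lie outside the deleted part of Tet2, and the URE lies outside the Spi1 transcript, so neither level checks the alleles.

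Of the 19951 genes tested, 676 were called between URE het Tet2 KO and WT, which is 3.39%. Of these 263 were higher in compound mutants (1.32% of genes tested) and 413 were lower (2.07%). Calls in the gene lists below stand against these shares, at which a short list may hold none. The falls were the larger changes, with a median log2 fold change of -4.12 among genes called lower and 2.58 among genes called higher, against 0.025 over all genes tested, and 496 of the 676 changed at least 4-fold. No compound library had a count in 42 of the genes called lower, and no WT library had one in 14 of those called higher. The libraries of the groups did not overlap in 639 of the 676, and over all genes tested they did not overlap in 22.2% (9.88% higher and 12.3% lower in compound mutants). The number of calls rested on the replicates. It was 100, 16 and 128 without WT replicates 1, 2 and 3, and 2521, 19 and 40 on leaving out compound replicates 1, 2 and 3 in turn. Fold sizes moved as well. Of the 44 called genes named by rule, 27 had a fold that moved by over 1.5 times on leaving out some 1 library, 11 of them without compound replicate 1 and 11 without compound replicate 2.

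**Figure D1:**
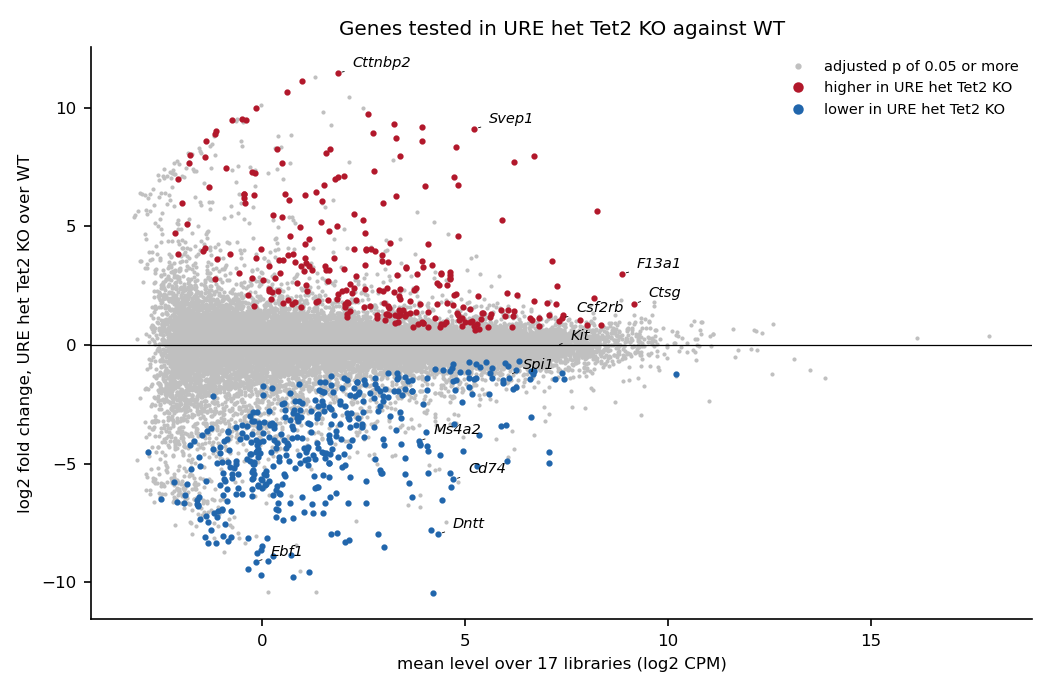
Log2 fold change of URE het Tet2 KO over WT (vertical axis) against the mean level over 17 libraries in log2 CPM (horizontal axis), 1 point per gene tested. The 263 red points are genes called higher in URE het Tet2 KO and the 413 blue points genes called lower, and the blue points lie further from the line at 0 at low levels.

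Most of the B lineage genes fell. Of 19 members tested, 12 fell and 1 rose, with a median log2 fold change of -3.97. Ebf1, a transcription factor that commits progenitors to the B lineage (ENSMUSG00000057098.14, chr11:44617317-45008091), had no count in any compound library, against 2.16, 3.35 and 1.21 CPM in WT, which puts it at least 68.4-fold lower (adjusted p = 0.0117). Pax5, the factor that maintains B cell identity, had none either, against 2.68, 4.80 and 0.706 CPM in WT (adjusted p = 0.0257). Rag1, a subunit of the V(D)J recombinase, likewise had no count in compound mutants and 2.56, 2.18 and 1.75 CPM in WT (adjusted p = 0.0167). WT levels of these genes were themselves a few CPM, in cells sorted against lymphoid surface markers. Cd22, an inhibitory Siglec receptor of B cells (chr7:30865402-30880342), had the smallest p of all genes tested. It stood at 0.0423, 0.0287 and 0.0605 CPM in compound mutants and at 1.85, 1.57 and 1.75 CPM in WT, a 36.2-fold fall (log2 -5.18 ± 0.58, adjusted p = 0.00421). Dntt, the terminal transferase that adds bases at V(D)J junctions and is transcribed from the earliest lymphoid progenitors on, stood at 0.296, 0.0573 and 0.0907 CPM in compound mutants and at 32, 30.6 and 43.7 CPM in WT (log2 -7.98 ± 1.45, adjusted p = 0.0196). The member that rose was Igll1, a surrogate light chain of the pre-B cell receptor, which was at 0.254, 241 and 124 CPM in compound mutants and at 0.185, 0.308 and 0.639 CPM in WT (log2 8.33 ± 1.98, adjusted p = 0.0364). Its rise came from replicates 2 and 3, and replicate 1 lay within the WT range.

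Most genes of MHC class II antigen presentation fell. Of 10 members tested, 6 fell and none rose, with a median of -3.31. In 9 all 3 compound libraries lay below WT, and in H2-DMb1 the groups overlapped (log2 0.39), and the eleventh, H2-Eb2, had too few counts to test. Cd74, the chaperone that guides newly made class II molecules to endosomes, stood at 0.465, 0.287 and 0.816 CPM in compound mutants and at 17.9, 25.5 and 37.3 CPM in WT, a 51-fold fall (log2 -5.67 ± 0.98, adjusted p = 0.0169). H2-Aa, the alpha chain of the I-A molecule, stood at 0.380, 0 and 0.272 CPM in compound mutants and at 16.4, 19.2 and 23.4 CPM in WT (log2 -6.55 ± 1.36, adjusted p = 0.0257). Its partner H2-Ab1 stood at 3.63, 0.143 and 0.272 CPM in compound mutants and at 16.6, 18.3 and 9.11 CPM in WT, without overlap and without a call (log2 -3.49 ± 1.19, adjusted p = 0.116). H2-Ob, the beta chain of the peptide-editing inhibitor DO (chr17:34238903-34254414), stood at 0.254, 0.172 and 0.0907 CPM in compound mutants and at 7.90, 9.53 and 10.2 CPM in WT (log2 -5.75 ± 1.01, adjusted p = 0.0179), and its alpha chain gene H2-Oa fell less, to 0.634, 0.545 and 0.333 CPM in compound mutants, against 1.79, 1.97 and 2.49 CPM in WT (log2 -2.05 ± 0.50, adjusted p = 0.0391). Ciita, the coactivator that switches class II promoters on, stood at 0.0423, 0.315 and 0.272 CPM in compound mutants and at 1.94, 2.03 and 1.85 CPM in WT (log2 -3.13 ± 0.93, adjusted p = 0.0784). The H2 genes resemble one another in sequence, and how reads that fit several genes were counted is not given in the sources used here. None of 13 class I and peptide-loading genes tested was called, against 3.39% of all genes tested, with a median of 0.011. B2m, the light chain of class I, stood at 343, 470.2 and 460.1 CPM in compound mutants and at 674, 982 and 698 CPM in WT (log2 -0.89 ± 0.33, adjusted p = 0.15).

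The promoters of 3 class II genes that fell are shown because class II genes share a set of promoter boxes through which Ciita acts, of which the Y box bears the inverted CCAAT motif. Each runs from 250 bases before to 50 bases after the RefSeq start in GRCm38.p6, on the strand of the gene, and the letters CTGATTGG are in capitals.
H2-Aa (chr17:34287774-34288073, minus strand): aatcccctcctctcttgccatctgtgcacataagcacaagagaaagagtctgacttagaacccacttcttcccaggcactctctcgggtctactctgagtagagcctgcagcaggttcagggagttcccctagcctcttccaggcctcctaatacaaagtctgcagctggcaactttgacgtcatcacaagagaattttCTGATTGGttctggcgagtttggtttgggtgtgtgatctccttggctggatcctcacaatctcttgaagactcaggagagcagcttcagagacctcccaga
H2-Eb1 (chr17:34305617-34305916, plus strand): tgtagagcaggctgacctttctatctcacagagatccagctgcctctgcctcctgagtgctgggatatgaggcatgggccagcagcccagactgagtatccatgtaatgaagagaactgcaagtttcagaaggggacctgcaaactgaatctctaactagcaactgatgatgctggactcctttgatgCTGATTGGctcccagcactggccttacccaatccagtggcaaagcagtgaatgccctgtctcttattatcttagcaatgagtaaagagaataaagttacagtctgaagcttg
H2-Oa (chr17:34092129-34092428, plus strand): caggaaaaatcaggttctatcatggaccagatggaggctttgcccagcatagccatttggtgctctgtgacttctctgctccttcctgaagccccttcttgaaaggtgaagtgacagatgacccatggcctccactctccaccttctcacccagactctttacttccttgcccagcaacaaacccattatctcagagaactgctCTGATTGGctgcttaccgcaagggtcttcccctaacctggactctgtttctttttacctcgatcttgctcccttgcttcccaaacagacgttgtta
The box began 51 bases before the start in H2-Aa, 62 in H2-Eb1 and 46 in H2-Oa, and H2-Eb2, which was not tested, also held it, so that 4 of the 8 class II genes with a promoter entry had these exact letters. H2-Ob, which fell too, had an entry without them. The letters CTGATTGG, on either strand, stood in 748 of 11626 promoters of genes tested (6.43%), in 20 of 269 of genes called lower (7.43%) and in 8 of 191 of genes called higher (4.19%). The PU.1 letters GAGGAAGT, on either strand, stood in 461 of the 11626 (3.97%), in 8 of the 269 (2.97%) and in 10 of the 191 (5.24%), among the named genes in F13a1 and Pdzrn3. A match is a string of letters in this window and says nothing of binding.

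Some of the dendritic cell genes fell, and a few genes of monocytes moved in both directions. Of 15 dendritic cell genes tested, 6 fell and none rose, with a median of -2.01. Calls in this list numbered 7 without compound replicate 1 and 1 to 3 on leaving out any other library. Siglech, a lectin of plasmacytoid dendritic cells (chr7:55768178-55778925), stood at 0.127, 0 and 0.0302 CPM in compound mutants and at 4.23, 6.37 and 4.51 CPM in WT (log2 -6.66 ± 1.28, adjusted p = 0.0205). Cd209a, a C-type lectin of dendritic cells, had no count in any compound library and 0.401, 1.08 and 1.85 CPM in WT, at least 33.9-fold lower (adjusted p = 0.0141). Irf4, a transcription factor of dendritic and B cells, stood at 0.0423, 0.373 and 0.151 CPM in compound mutants and at 2.99, 3.51 and 2.49 CPM in WT (log2 -3.91 ± 0.66, adjusted p = 0.0167). Of 19 monocyte and macrophage genes tested, out of 20 listed, 2 rose and 1 fell, with a median of -0.42. F13a1, the A subunit of coagulation factor XIII that monocytes make (ENSMUSG00000039109.15, chr13:36867178-37050244), stood at 335, 2391 and 1371 CPM in compound mutants and at 199, 181 and 133 CPM in WT, a 7.99-fold rise (log2 3.0 ± 0.72, adjusted p = 0.0377) that was 4.98-fold without compound replicate 2. Replicates 2 and 3 were well above replicate 1, which still exceeded all WT libraries. Ly6c2, the surface antigen of inflammatory monocytes, showed the same split, with 420.5, 2207 and 2165 CPM in compound mutants and 452, 495 and 415 CPM in WT, and did not pass (log2 1.81 ± 0.56, adjusted p = 0.0855). Mrc1, the mannose receptor of macrophages, stood at 0.211, 0.258 and 0.0302 CPM in compound mutants and at 4.57, 3.66 and 1.88 CPM in WT (log2 -4.32 ± 0.69, adjusted p = 0.0147). Beside these results stand the summed monocyte and macrophage markers given above. Their high sums in replicates 2 and 3 were mostly Ly6c2, and the median log2 fold change of the 4 markers tested was -0.20. The part of such cells in the other changes was not tested.

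The mast cell, basophil and eosinophil list had the lowest median of the 27 lists, -4.43. Of 16 members tested, out of 18 listed, 7 fell and none rose. Epx, the eosinophil peroxidase (chr11:87864000-87875536), stood at 0.0845, 0.0287 and 0.0302 CPM in compound mutants and at 26.1, 5.97 and 4.57 CPM in WT, a 252-fold fall (log2 -7.98 ± 1.38, adjusted p = 0.0169) that was 109-fold without WT replicate 1. Ms4a2, the beta chain of the high-affinity IgE receptor, stood at 3.68, 1.20 and 0.333 CPM in compound mutants and at 28.4, 31.1 and 24.8 CPM in WT (log2 -4.04 ± 0.74, adjusted p = 0.0199), and its partner Fcer1a at 1.99, 0 and 0.0605 CPM in compound mutants and at 12.9, 18 and 18.7 CPM in WT (log2 -4.68 ± 1.23, adjusted p = 0.0511). Prg2, the major basic protein of eosinophil granules, stood at 0.930, 0.0287 and 0.0605 CPM in compound mutants and at 46.2, 26.1 and 8.44 CPM in WT (log2 -6.42 ± 1.38, adjusted p = 0.0276). In these 4 genes replicate 1 had the highest of the compound values and was still below each WT library. Cpa3, the carboxypeptidase of mast cells and basophils, stood at 17.8, 0.229 and 0.0605 CPM in compound mutants and at 82.8, 94.3 and 98.4 CPM in WT, and the difference did not pass (log2 -3.95 ± 1.49, adjusted p = 0.155).

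Stem cell genes were mostly low, with 8 of 27 tested members called lower and 1 higher, and a median of -2.78. Meis1, a homeobox partner of Hox proteins in stem cell self-renewal (ENSMUSG00000020160.18, chr11:18879817-19018985), stood at 2.66, 0.115 and 0.121 CPM in compound mutants and at 31.9, 31.7 and 53.7 CPM in WT, a 42.5-fold fall (log2 -5.41 ± 1.35, adjusted p = 0.0425). It was 322-fold without compound replicate 1, and the call was lost without any of the other 5 libraries. Angpt1, a ligand of the receptor Tek, stood at 4.52, 4.99 and 0.393 CPM in compound mutants and at 66.5, 95.3 and 132 CPM in WT (log2 -4.89 ± 1.08, adjusted p = 0.0289), and Tek itself at 0.380, 0.143 and 0.0605 CPM in compound mutants and at 2.96, 2.12 and 3.36 CPM in WT (log2 -3.89 ± 0.98, adjusted p = 0.0431). Both genes of this ligand and receptor pair were thus lower in all 3 compound libraries than in any WT library. Procr, the endothelial protein C receptor used to sort stem cells, stood at 0.0845, 0 and 0 CPM in compound mutants and at 0.833, 2.28 and 3.03 CPM in WT (log2 -6.25 ± 1.45, adjusted p = 0.0337). Trpc6, a cation channel gene counted with the stem cell list, had no count in compound mutants and 1.33, 2.03 and 2.08 CPM in WT, at least 55.4-fold lower (adjusted p = 0.0202). The member that rose was Cdkn1c, a cyclin-dependent kinase inhibitor linked to stem cell quiescence, at 2.03, 3.98 and 5.05 CPM in compound mutants and 0.216, 0.554 and 0.773 CPM in WT (log2 2.84 ± 0.60, adjusted p = 0.0267). It was also the 1 gene called among the 6 cyclin-dependent kinase inhibitors tested, out of 8 listed. Mecom and Hlf, transcription factors of stem cells, were lower in each compound library than in each WT library without a call (Mecom log2 -3.67 ± 1.00, adjusted p = 0.0574, Hlf log2 -1.17 ± 0.36, adjusted p = 0.0844).

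Of 17 Hox, Meis and Pbx genes tested, out of 18 listed, 3 fell and none rose, with a median of -1.36. Besides Meis1, these were Hoxa3 and Hoxa10. Hoxa10, a posterior Hox gene of early progenitors (chr6:52231197-52240854), stood at 0.0423, 0 and 0 CPM in compound mutants and at 1.05, 1.20 and 1.31 CPM in WT (log2 -6.28 ± 1.40, adjusted p = 0.0292). Pbx3, another partner of Hox proteins, went the other way without a call, at 7.57, 16.5 and 19.6 CPM in compound mutants and 5.98, 6.15 and 7.43 CPM in WT (log2 1.16 ± 0.43, adjusted p = 0.147).

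Erythroid and megakaryocyte genes had low medians, -2.55 and -1.90. Of 21 erythroid genes tested, out of 22 listed, 2 fell, and of 13 megakaryocyte genes tested, out of 16 listed, 1 fell, and none rose. Gfi1b, a repressor needed for red cells and platelets (ENSMUSG00000026815.14, chr2:28609450-28621982), stood at 0.0845, 0 and 0 CPM in compound mutants and at 1.57, 2.37 and 1.58 CPM in WT (log2 -6.10 ± 1.04, adjusted p = 0.0167). Its paralogue Gfi1, which restrains the monocyte programme in favour of neutrophils, rose to 64.2, 160.3 and 78.6 CPM in compound mutants, against 41.1, 30.5 and 38.3 CPM in WT (log2 1.46 ± 0.32, adjusted p = 0.0282). Car2, a carbonic anhydrase of early erythroid cells, stood at 4.82, 0.774 and 0.574 CPM in compound mutants and at 31.4, 42.1 and 61.5 CPM in WT (log2 -4.48 ± 1.03, adjusted p = 0.0325). For Car2 replicate 1 was the highest of the compound libraries and lay below WT. Gata1, the master factor of both lineages, stood at 0.296, 0 and 0 CPM in compound mutants and at 0.740, 1.14 and 1.61 CPM in WT (log2 -3.69 ± 1.21, adjusted p = 0.105).

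**Figure D2:**
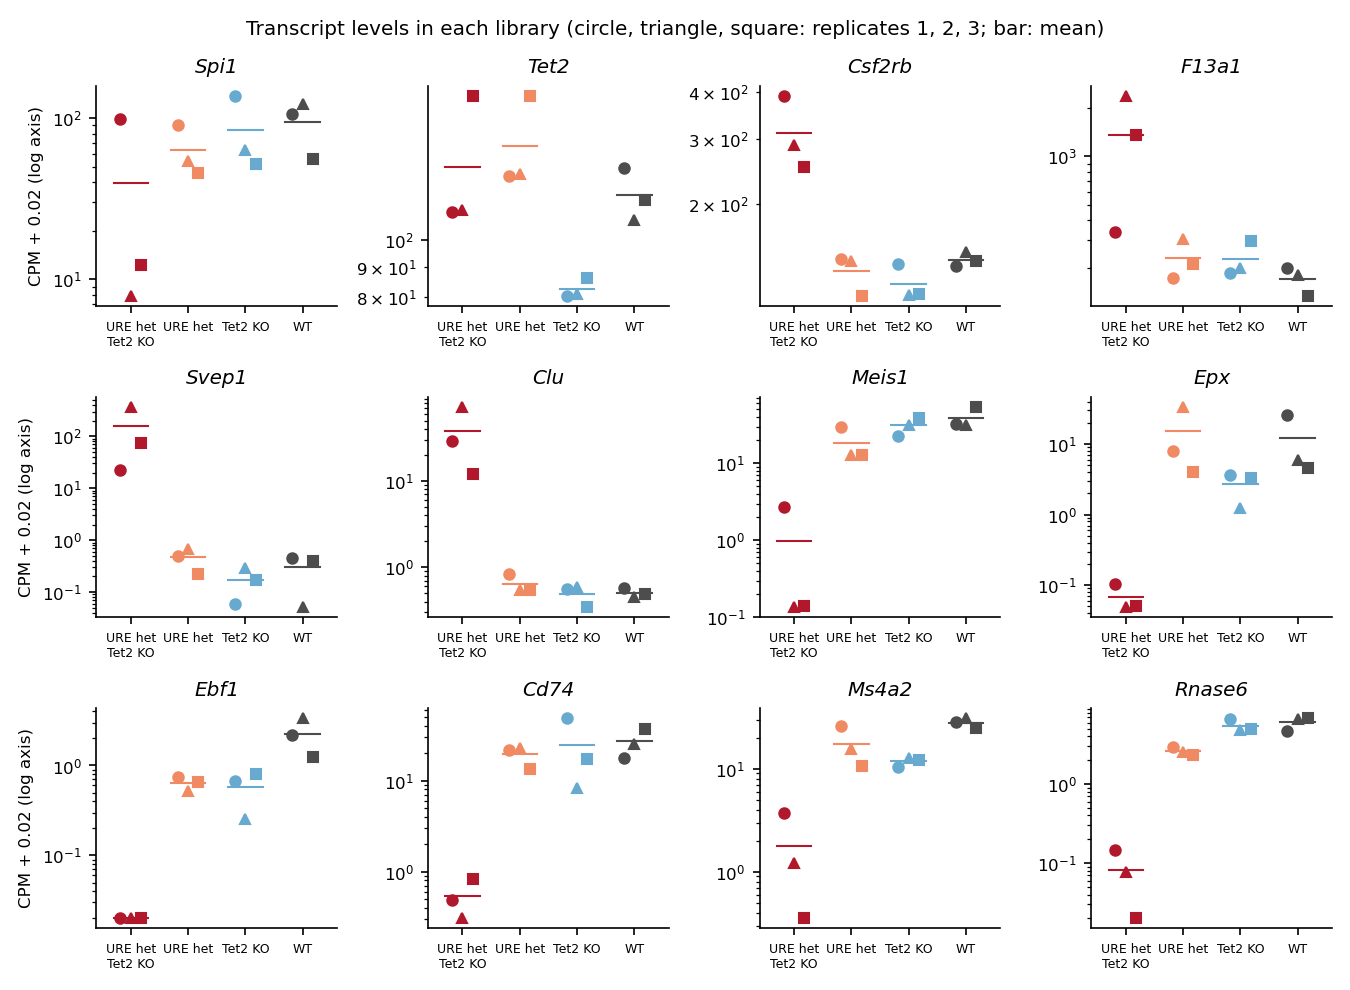
Levels of 12 genes in each library (CPM + 0.02, log axis), with the 3 URE het Tet2 KO libraries on the left, then URE het, Tet2 KO and WT; circles, triangles and squares are replicates 1, 2 and 3 and bars are means. Spi1 is low in URE het Tet2 KO replicates 2 and 3 only, whereas Csf2rb, F13a1, Svep1 and Clu lie above and Meis1, Epx, Ebf1, Cd74, Ms4a2 and Rnase6 below the WT libraries in all 3 replicates.

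T and NK cell genes gave 4 falls and 1 rise among 18 tested, out of 19 listed, with a median of -1.55. Gzma, the granzyme A protease of cytotoxic cells, stood at 0, 0.0287 and 0.0302 CPM in compound mutants and at 0.987, 1.60 and 1.21 CPM in WT (log2 -5.64 ± 1.09, adjusted p = 0.0205). Gata3, a transcription factor of T cells and innate lymphoid cells, stood at 0.0845, 0.0287 and 0.0907 CPM in compound mutants and at 0.864, 0.923 and 1.31 CPM in WT (log2 -3.88 ± 0.93, adjusted p = 0.0368). Thy1, a surface glycoprotein of T cells, was the member that rose, with 0.972, 49.7 and 36.2 CPM in compound mutants and 1.33, 2.03 and 1.95 CPM in WT (log2 4.03 ± 0.97, adjusted p = 0.0377), and as with Igll1 its replicate 1 was no higher than WT. Of 23 haematopoietic transcription factors tested, 4 fell and 1, Gfi1, rose, with a median of -0.31. Those that fell were Irf4, Gfi1b, Spib and Lmo2. Lmo2, an adaptor of the Tal1 and Gata complexes, changed little in size but evenly, with 51, 49.9 and 43.2 CPM in compound mutants and 102, 100 and 94.2 CPM in WT (log2 -1.04 ± 0.21, adjusted p = 0.0224).

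In the list of primary granule and granulocyte-monocyte progenitor genes 2 of 16 tested rose and none fell, with a median of 0.37. Ctsg, the cathepsin G of primary granules (ENSMUSG00000040314.1, chr14:56099881-56102574), stood at 1066, 1359.6 and 1084 CPM in compound mutants and at 397, 299.7 and 354 CPM in WT, a 3.34-fold rise (log2 1.74 ± 0.44, adjusted p = 0.0434), with the 3 replicates close together. The other was Gfi1, given above. None of 17 late neutrophil genes tested was called, against 3.39% of all genes tested, with a median of -0.98. Camp, the cathelicidin of secondary granules, stood at 761, 255 and 298 CPM in compound mutants and at 832, 1459.6 and 1008 CPM in WT (log2 -1.33 ± 0.49, adjusted p = 0.147). Ltf, the lactoferrin of secondary granules, stood at 1202, 25.5 and 102 CPM in compound mutants and at 1902, 2961 and 1885 CPM in WT (log2 -2.34 ± 0.98, adjusted p = 0.198). The 6 mature neutrophil markers, Camp and Ltf among them, summed to 32296, 10338 and 11111 CPM in compound replicates 1, 2 and 3, against 25870, 46344 and 44963 CPM in WT. The sum of replicate 1 thus lay within the WT range and those of replicates 2 and 3 below it. Taken singly, 3 of the 6 were lower in each compound library than in any WT library. Their median log2(CPM + 0.5) minus the WT mean was -0.43 in compound replicate 1, against -0.32, 0.44 and -0.15 in WT. Without compound replicate 1, 8 of the 17 late neutrophil genes were called lower.

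Growth factor receptor genes moved in both directions, 3 of 18 tested up and 4 down, with a median of -0.014. Csf2rb, the beta chain shared by the receptors for GM-CSF, IL-3 and IL-5 (ENSMUSG00000071713.4, chr15:78325752-78353847), stood at 391, 289.7 and 251 CPM in compound mutants and at 136, 149 and 141 CPM in WT, a 2.19-fold rise (log2 1.13 ± 0.22, adjusted p = 0.0206). Csf2rb2, the neighbouring near copy specific for IL-3, rose as well (log2 1.27 ± 0.29, adjusted p = 0.0312), and reads that fit both genes make these 2 counts less certain. Ifngr1, the ligand-binding chain of the interferon gamma receptor, stood at 405, 872 and 737 CPM in compound mutants and at 209, 172 and 129 CPM in WT, a 3.95-fold rise (log2 1.98 ± 0.41, adjusted p = 0.0257). All 3 receptors were higher in each compound library than in any WT library. Those that fell included Tek, given above, Il7r, the interleukin 7 receptor of lymphoid progenitors, and Il1rl1, the interleukin 33 receptor of mast cells. Il7r stood at 0.0845, 0.516 and 0.574 CPM in compound mutants and at 4.75, 6.77 and 7.60 CPM in WT (log2 -3.97 ± 0.86, adjusted p = 0.0281), and Il1rl1 at 0.338, 0 and 0.0907 CPM in compound mutants and at 2.47, 3.01 and 5.55 CPM in WT (log2 -4.77 ± 1.20, adjusted p = 0.0427).

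Extracellular matrix genes gave the most rises of any list, 6 of 22 tested, out of 28 listed, with 1 fall and a median of 1.90. Without compound replicate 2 none was called and the median was -0.60. The 6 untested members had too few counts to test. Svep1, an adhesion protein of the matrix (ENSMUSG00000028369.15, chr4:58042442-58206859), stood at 22.2, 368 and 75.3 CPM in compound mutants and at 0.432, 0.0308 and 0.370 CPM in WT, a 554-fold rise (log2 9.11 ± 1.72, adjusted p = 0.0205). It was 174-fold without compound replicate 2, and the adjusted p lay between 0.0521 and 0.0776 on leaving out any library but compound replicate 1. Clu, the secreted chaperone clusterin (chr14:65968483-65981547), stood at 29.1, 72.5 and 12.2 CPM in compound mutants and at 0.555, 0.431 and 0.471 CPM in WT, a 77.4-fold rise (log2 6.27 ± 1.02, adjusted p = 0.0167) that was 42-fold without compound replicate 2. Both were far above WT in all 3 replicates. Other members were far lower in replicate 1 than in replicates 2 and 3. Fn1, fibronectin, stood at 52.7, 2828 and 1233 CPM in compound mutants and at 34.5, 18.3 and 28.2 CPM in WT (log2 5.67 ± 1.46, adjusted p = 0.0463), Thbs4, thrombospondin 4, at 4.06, 577 and 182 CPM in compound mutants and at 1.14, 0.984 and 0.908 CPM in WT (log2 7.97 ± 1.96, adjusted p = 0.0403), and Lamb1, a laminin chain, at 0.380, 87.2 and 73.8 CPM in compound mutants and at 0.278, 0.0923 and 0.269 CPM in WT (log2 7.96 ± 1.64, adjusted p = 0.0257). The sixth was Lamc1, a further laminin chain. Bgn, the proteoglycan biglycan, fell to 0.127, 0.115 and 0.181 CPM in compound mutants, against 0.956, 1.97 and 4.10 CPM in WT (log2 -4.01 ± 0.92, adjusted p = 0.0317). Of 10 stromal and endothelial genes tested, out of 13 listed, 1 was called, Emcn, the endomucin of endothelium and stem cells, which stood at 0.0423, 0 and 0 CPM in compound mutants and at 2.19, 2.74 and 2.66 CPM in WT (log2 -7.38 ± 1.42, adjusted p = 0.0205). The median of the 10 was 0.81, with 6 positive, and 4 were called higher without compound replicate 1. Without compound replicate 2 the median was -0.33. The levels of the 13 summed to 24, 164 and 143 CPM in compound mutants and to 59.2, 71.2 and 50.4 CPM in WT, most of it from Pecam1, an adhesion molecule that endothelium shares with blood cells, at 17.1, 127 and 105 CPM in compound mutants and 48.1, 53.1 and 36.5 CPM in WT. Of the defining markers, Cdh5, the cadherin of endothelium, had no count in compound mutants, and Pdgfra, Cxcl12 and Lepr, of stromal cells, reached at most 0.0907, 0.635 and 7.71 CPM in compound mutants and 0.0308, 0.4 and 0.168 CPM in WT. The part of such cells in the matrix values was not tested.

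The largest rises, in genes averaging at least 1 log2 CPM whose groups did not overlap, were in genes nearly silent in WT. Cttnbp2, a cortactin-binding protein known from neurons (chr6:18366478-18514843), had 0 counts in all 3 WT libraries and 0.338, 13.7 and 19.6 CPM in compound mutants, at least 354-fold higher (log2 11.47 ± 2.70, adjusted p = 0.0391, where the fitted value depends on the prior count). Smoc2, a calcium-binding matrix protein, stood at 2.37, 53.4 and 44.7 CPM in compound mutants and at 0.0309, 0.0308 and 0.135 CPM in WT (log2 8.95 ± 1.60, adjusted p = 0.0193). Replicate 1 carried only a small part of these rises. The same held for Heph, the iron oxidase hephaestin, with 0.592, 68.3 and 69.6 CPM in compound mutants and 0.216, 0 and 0.101 CPM in WT (log2 8.72 ± 1.87, adjusted p = 0.0276), and for the protocadherin Pcdh11x, with 1.18, 119 and 8.95 CPM in compound mutants and 0.0309, 0.0923 and 0.0673 CPM in WT (log2 9.32 ± 1.98, adjusted p = 0.027). Colec12, a scavenger receptor of the collectin family, had 0.127, 22.8 and 69 CPM in compound mutants and 0.0309, 0 and 0.0673 CPM in WT (log2 9.74 ± 2.09, adjusted p = 0.0276). Pdzrn3, a ubiquitin ligase with PDZ domains, had 0.127, 37.7 and 8.92 CPM in compound mutants and 0.123, 0 and 0.0336 CPM in WT (log2 8.11 ± 1.81, adjusted p = 0.0292), and its replicate 1 exceeded the highest WT library slightly.

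The largest falls under the same terms, beside Epx, Dntt and Siglech, were in genes of a few CPM in WT. Kcng1, a modulatory potassium channel subunit (chr2:168260117-168281736), stood at 0, 0 and 0.0302 CPM in compound mutants and at 3.24, 5.11 and 5.78 CPM in WT (log2 -8.31 ± 1.40, adjusted p = 0.0167). Rnase6, an antimicrobial ribonuclease of myeloid cells (ENSMUSG00000021880.6, chr14:51123908-51132187), stood at 0.127, 0.0573 and 0 CPM in compound mutants and at 4.72, 6.55 and 6.83 CPM in WT, a 100.3-fold fall (log2 -6.65 ± 0.82, adjusted p = 0.00603) that was 182-fold without compound replicate 1 and 65.8-fold without compound replicate 3. Scin, the actin-severing protein scinderin, stood at 0.0423, 0 and 0.0302 CPM in compound mutants and at 3.92, 4.34 and 2.32 CPM in WT (log2 -7.08 ± 1.30, adjusted p = 0.0199). In each of these genes the compound libraries lay near 0 and the WT libraries within a few CPM of one another. Apob, apolipoprotein B, stood at 0, 0 and 0.0605 CPM in compound mutants and at 2.62, 1.35 and 6.59 CPM in WT (log2 -7.11 ± 1.37, adjusted p = 0.0205), and Crispld1, a secreted cysteine-rich protein, at 0, 0.0573 and 0 CPM in compound mutants and at 3.15, 2.43 and 4.51 CPM in WT (log2 -7.05 ± 1.27, adjusted p = 0.0194).

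Of 24 PU.1 target genes tested 3 fell and none rose, with a median of -0.77. The 3 were Il7r, given above, Spib and Mef2c. Spib, the ETS factor closest to PU.1, stood at 0.338, 0.229 and 0.0907 CPM in compound mutants and at 2.13, 3.01 and 1.21 CPM in WT (log2 -3.28 ± 0.72, adjusted p = 0.0289). Mef2c, a MADS-box factor of lymphoid and myeloid progenitors, stood at 24.3, 39.7 and 27.2 CPM in compound mutants and at 95.6, 100.4 and 115 CPM in WT (log2 -1.77 ± 0.45, adjusted p = 0.043), with all 3 replicates below WT. Itgam, the integrin CD11b, stood at 289.9, 15.1 and 38.8 CPM in compound mutants and at 1192, 1071 and 396 CPM in WT and did not pass (log2 -2.95 ± 1.12, adjusted p = 0.155). Replicate 1 was the highest of the 3 compound libraries for Itgam and Spib, as for Spi1 itself, and the lowest for Mef2c and Il7r. Over the list, the median of log2(CPM + 0.5) minus the WT mean was -0.77, -1.04 and -0.93 in compound replicates 1, 2 and 3. The part of the Spi1 level in these values was not tested.

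Inflammatory and signal-response genes varied within WT. Of 14 NF-kB and inflammatory genes tested, out of 15 listed, 2 fell, with a median of -1.72. Il6, the cytokine interleukin 6, stood at 0.0423, 0 and 0.0302 CPM in compound mutants and at 0.710, 0.800 and 0.874 CPM in WT (log2 -4.92 ± 1.09, adjusted p = 0.0289), and Ccl4, a chemokine, at 0.761, 0.659 and 1.09 CPM in compound mutants and at 12.2, 9.97 and 3.09 CPM in WT (log2 -3.33 ± 0.83, adjusted p = 0.0414). None of 17 immediate early genes tested was called, against 3.39% of all genes tested, although their median was -2.15, and WT replicate 2 was the high library. Nr4a1, an orphan nuclear receptor induced by stimuli, stood at 2.28, 0.545 and 0.695 CPM in compound mutants and at 14.1, 67.5 and 4.37 CPM in WT (log2 -4.63 ± 1.37, adjusted p = 0.076). Fos, an AP-1 subunit, stood at 73, 55.8 and 86 CPM in compound mutants and at 359, 879 and 90.7 CPM in WT (log2 -2.63 ± 0.83, adjusted p = 0.0941), so the spread of the WT libraries was as wide as the gap between groups. None of 16 interferon-stimulated genes tested was called, against the same share of all genes, with a median of -1.09. Oas2, an oligoadenylate synthetase, stood at 2.16, 2.01 and 0.212 CPM in compound mutants and at 16.4, 25.1 and 6.89 CPM in WT (log2 -3.47 ± 0.93, adjusted p = 0.0553).

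Genes of growth and housekeeping showed no calls, against 3.39% of all genes tested. These were 27 genes of S phase and mitosis (median -0.18), 15 of Myc and ribosome biogenesis (-0.26), 15 of the respiratory chain (0.15), 14 of 15 listed p53 targets (0.29) and 15 of DNA methylation and demethylation (-0.20). The S phase and mitosis genes summed to 7137, 2452 and 3434 CPM in compound replicates 1, 2 and 3, against 5714, 4839 and 4603 CPM in WT. The sum of replicate 1 thus lay above every WT library, and those of replicates 2 and 3 lay below. By smallest p, Pcna, the replication clamp, stood at 199, 59.9 and 102 CPM in compound mutants and at 246, 258 and 257 CPM in WT (log2 -1.08 ± 0.37, adjusted p = 0.123), and Nop58, a nucleolar protein of ribosome assembly, at 99, 134 and 102 CPM in compound mutants and at 198, 208 and 207 CPM in WT (log2 -0.87 ± 0.24, adjusted p = 0.0615). Zmat3, a p53-induced RNA-binding protein, stood at 3.30, 15.9 and 6.80 CPM in compound mutants and at 1.79, 1.63 and 3.13 CPM in WT (log2 1.99 ± 0.56, adjusted p = 0.0628), and Cox4i1, a subunit of cytochrome c oxidase, at 68.3, 128 and 117 CPM in compound mutants and at 52.5, 61.5 and 81.4 CPM in WT (log2 0.68 ± 0.29, adjusted p = 0.205). Tet1, the relative of Tet2 with the same activity, stood at 21.3, 11.2 and 10.2 CPM in compound mutants and at 69, 55.9 and 61.3 CPM in WT. The groups for Tet1 lay far apart without a call (log2 -2.13 ± 0.58, adjusted p = 0.058). An adjusted p above 0.05 does not show that these levels were alike. At the share over all genes, no call in lists this short does not set them apart.

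**Figure D3:**
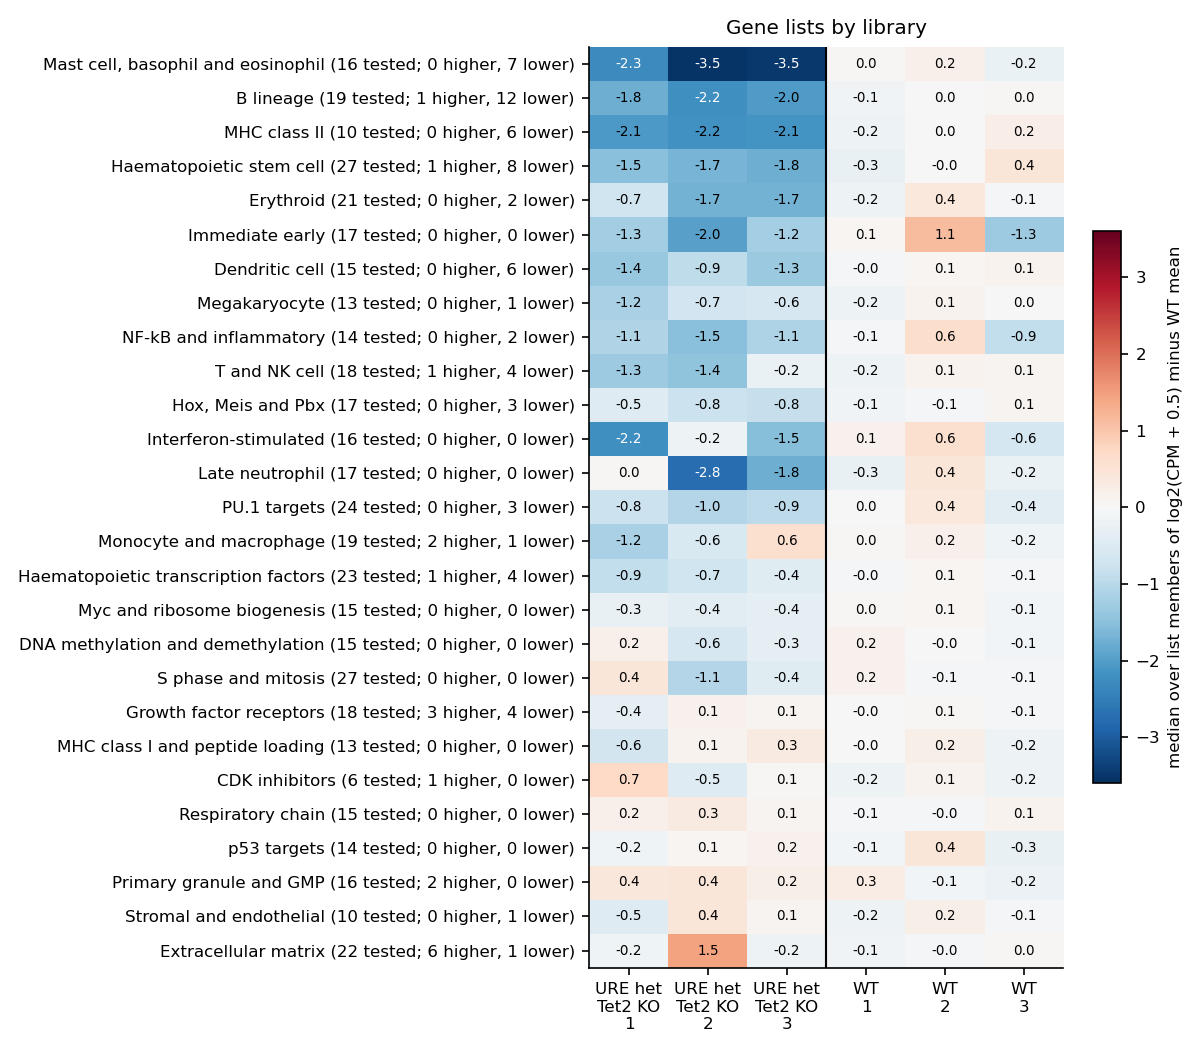
Median over the tested members of each of 27 gene lists of log2(CPM + 0.5) minus the WT mean, with the 3 URE het Tet2 KO libraries left of the 3 WT libraries; blue is lower and red higher, and the counts of members called in each direction stand beside the list names. The mast cell, B lineage, MHC class II and stem cell rows are blue in each URE het Tet2 KO library, the late neutrophil row only in replicates 2 and 3, and the extracellular matrix row is red only in replicate 2.

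Replicate 1 of URE het Tet2 KO stood apart from replicates 2 and 3. On the first principal component of log2 CPM over all 17 libraries, which held 36.6% of the variance, the compound libraries lay at 14.5, 154 and 134 and the WT libraries at -43.5, -51.6 and -45.5. The second component (15.9%) separated libraries by the number in their titles, 1 to 7 against 8 to 17, which the labels do not call a batch. Compound replicate 1 and WT replicates 1 and 2 belong to the first range, and compound replicates 2 and 3 and WT replicate 3 to the second. With a term for this range 1133 genes were called, 444 higher and 689 lower, of which 622 were among the 676. Of the 44 named genes called, 37 kept the call with this term, and those that lost it included Cttnbp2, Pcdh11x, Heph, F13a1 and Ccl4. Within numbers 8 to 17, where WT has 1 library and is assumed to vary like the other groups, 2789 were called, 591 of them among the 676. Within numbers 1 to 7 URE het Tet2 KO has 1 library and the spread rests on 1 residual degree of freedom, from the pair of WT libraries, so calls there are no check. Of the 666 called genes with a value there, 644 had the same sign. Replicate 1 alone against the 3 WT libraries, in the fit of all groups, gave 0 calls with edgeR, and replicates 2 and 3 gave 2521. In replicate 1 alone 645 of 668 called genes with a value had the same sign, and its median shift in called genes was 83.2% of that of replicates 2 and 3. These libraries took part in the calls, so that the signs are no separate check. In the lists, the 12 B lineage, 7 mast cell, 8 stem cell and 6 class II genes called lower became 15, 14, 13 and 7 without compound replicate 1. Without WT replicate 2 no list had more than 2 members called, without compound replicate 2 no more than 1, and without compound replicate 3 no more than 2. Xist and Y-linked transcripts read as female in compound replicates 1 and 3 and in WT replicates 1 and 2, as male in WT replicate 3 and as neither in compound replicate 2. A fit with a term for this reading drops compound replicate 2 and a library of another genotype group that also read as neither. With the term 448 genes were called, against 787 in the same libraries without it.

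**Figure D4:**
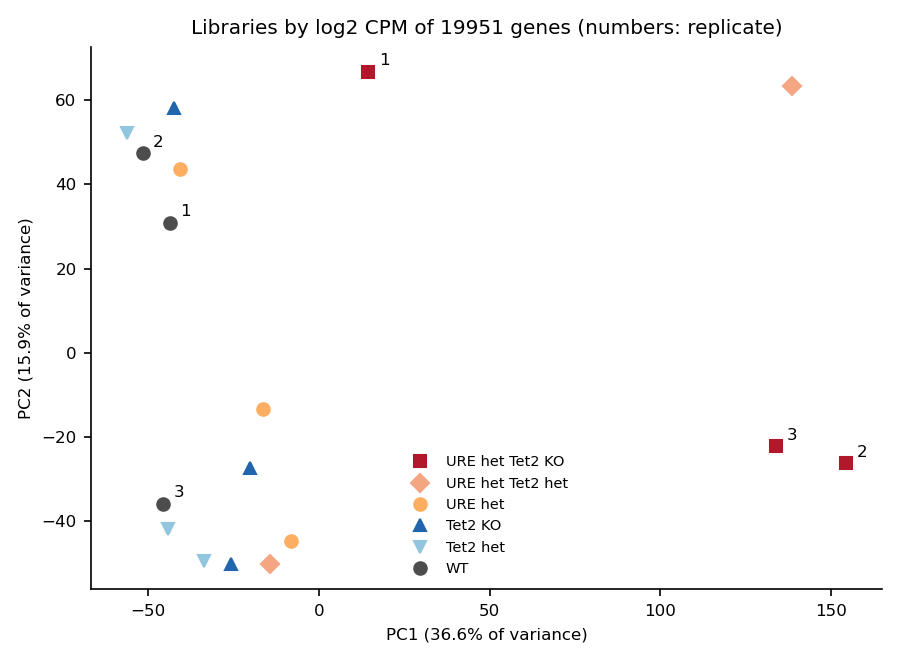
First and second principal components of log2 CPM over 19951 genes, 1 point per library of the series, with replicate numbers beside the URE het Tet2 KO (red squares) and WT (dark circles) libraries. URE het Tet2 KO replicates 2 and 3 lie at the right with PC1 of 154 and 134, and replicate 1 lies at 14.5, nearer the WT libraries at -43.5 to -51.6.

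Replicates 2 and 3 also shared a low stretch of chromosome 2 around Spi1. Median levels were taken over 340 genes between 60 and 160 Mb with a WT mean of at least 10 CPM. They were 104.6%, 49.7% and 49.0% of the WT mean in compound replicates 1, 2 and 3. Each WT library, here and below, was set against the mean of the other 2, which gave 105.6%, 100.9% and 93.2%. The rest of chromosome 2 stood at 110.3%, 91.3% and 93.3% in compound mutants and at 104.4%, 104.1% and 88.3% in WT. In bins of 10 Mb the low level began between 35 and 55 Mb before the Spi1 start and ended between 65 and 85 Mb after it. The share of genes called there was that of the other autosomes, since 27 of 791 genes tested in the interval were called (3.41%, 4 higher and 23 lower), against 598 of 17551 on the other autosomes (3.41%, 247 higher and 351 lower). Spi1, B2m and Pcna lie within the interval. Gfi1b, Gata3, Mrc1 and Kcng1 lie on chromosome 2 outside it. Without the interval's genes 649 genes were called, all of them among the 676. The Spi1 levels of compound replicates 2 and 3, 7.83 and 12.2 CPM, stood against a WT mean of 94.5 CPM, and the part of the interval in them was not tested.

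**Figure D5:**
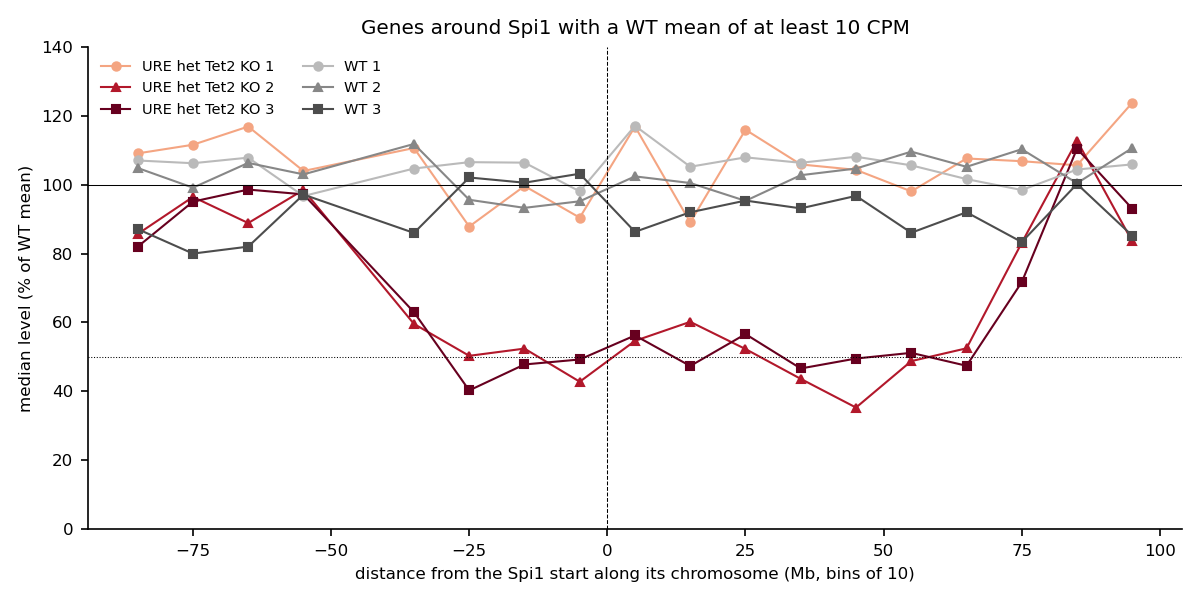
Median level of genes in 10 Mb bins around the Spi1 start (vertical axis) against distance in Mb (horizontal axis), 1 line per library. Levels are percentages of the WT mean, or, for a WT library, of the mean of the other 2. URE het Tet2 KO replicates 2 and 3 lie near 50% from about 35 Mb before to 65 Mb after the start, and replicate 1 and the WT libraries lie near 100%.

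The single mutants were compared with the same 3 WT libraries in the same fit, so the comparisons are not independent. In edgeR no gene was called in Tet2 KO against WT (0 of 19951, 512 at an unadjusted p under 0.05, and 12 with DESeq2) or in URE het against WT (0 of 19951, 753 unadjusted, and 7 with DESeq2). The difference between the compound change and the sum of the single changes, the interaction, had no call either (0 of 19951, 1618 unadjusted). DESeq2 called 151 genes for the interaction, and edgeR called 279 without compound replicate 1. For Csf2rb, the URE het libraries had 142, 141 and 113 CPM and the Tet2 KO libraries 138, 114 and 115 CPM, close to WT, and the interaction was 1.45 (adjusted p = 0.293). For Clu the URE het libraries had 0.806, 0.531 and 0.519 CPM and the Tet2 KO libraries 0.534, 0.565 and 0.323 CPM, and the interaction was 5.98 (adjusted p = 0.293). Neither single mutant reached the compound levels of these 2 genes in any library. In other genes, none of them called in a single mutant, a URE het or Tet2 KO level lay below the WT level given above. Siglech had 0.146, 0.863 and 0.722 CPM in URE het and 4.70, 2.43 and 2.23 CPM in Tet2 KO, with an interaction of -2.87 (adjusted p = 0.671). Spib had 0.256, 0.365 and 0.519 CPM in URE het and 2.44, 0.998 and 0.882 CPM in Tet2 KO, and Irf4 1.10, 0.465 and 0.433 CPM in URE het and 2.48, 0.865 and 1.29 CPM in Tet2 KO. Ms4a2 had 26.2, 15.7 and 10.6 CPM in URE het and 10.4, 12.8 and 12.2 CPM in Tet2 KO. Cd22, the gene of smallest p, had 0.696, 0.697 and 1.36 CPM in URE het and 2.33, 1.46 and 1.32 CPM in Tet2 KO, and its interaction of -4.26 had an adjusted p of 0.275.

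A set of 8 genes was called whichever of the 6 libraries was left out, among them Cd22 and Rnase6. They were singled out after their values were seen. Being called in each omission favours genes that are even within a group, so their evenness is no separate result. Fam20c, a Golgi kinase of secreted proteins, was the 1 gene of the 8 that rose, with 9.89, 13.8 and 11.9 CPM in compound mutants and 2.41, 1.48 and 2.05 CPM in WT (log2 fold change 2.58, adjusted p = 0.00603). Basp1, a membrane-bound signalling protein, had 0.211, 0.201 and 0.212 CPM in compound mutants and 2.84, 5.17 and 3.13 CPM in WT (-4.13, adjusted p = 0.00671). Msrb3, a methionine sulfoxide reductase, had 0.211, 0.201 and 0.212 CPM in compound mutants and 2.04, 4.24 and 6.93 CPM in WT (-4.38, adjusted p = 0.00671). Of these 3 genes, Msrb3 had the WT libraries that lay furthest apart. Ms4a4c, a tetraspanning membrane protein of myeloid cells, had 0.254, 0.401 and 0.0907 CPM in compound mutants and 2.19, 4.86 and 3.77 CPM in WT (-3.83, adjusted p = 0.00671). Dennd5b, a Rab exchange factor, had 0.211, 0.143 and 0.121 CPM in compound mutants and 4.38, 5.26 and 7.06 CPM in WT (-5.13, adjusted p = 0.00671). The eighth was Igkv1-135, an immunoglobulin kappa variable segment, with no count in compound mutants and 3.30, 2.58 and 4.51 CPM in WT.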

How the data were processed

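The authors deposited 1 table of raw counts, whole reads per feature with no normalization, 1 column per library. Reads were aligned with STAR to GRCm38, per the submitters' processing notes; versions, annotation, counting tool and strand setting are not given in the sources used here, so reads of overlapping antisense genes cannot be told apart. Of 96004 features 47643 were genes, and 47224 of them matched GENCODE release M21 for symbols and positions; 48361 features marked enh, with 2.71 to 4.12% of the counts of the 6 libraries compared, were left out. No library repeated another of its own genotype group within sampling noise, and pairs across groups were not compared.

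Computed here were TMM factors and CPM, a filter on low counts (filterByExpr, minimum count 10, total 15), and edgeR 4.0.16 (R 4.3.3, quasi-likelihood, robust, two-sided, 6 genotype groups, 17 libraries), which pools the spread of all groups. SE is the log2 fold change over the square root of F. On simulated data of 19396 genes with known changes between these groups the test called 2% of genes changed by log2 1, 76% by 2, 88% by 3 and 98% by 5, and 8 unchanged genes, so changes near log2 1 mostly go uncalled. The changed genes averaged at least 2 CPM and shifted alike in all 3 compound libraries. These rates therefore do not cover rarer genes or genes uneven between replicates. Intervals from counting are narrow except for the rarest genes. A fold against a group at 0 counts is a lower bound set by 3 counts over that group.

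Genes named were Spi1, Tet2 and Kit, the 8 largest rises and 8 largest falls among called genes that averaged at least 1 log2 CPM and whose groups did not overlap, and from each list up to 2 called members by smallest p, or, with none called, the member of smallest p (predicted, immunoglobulin, pseudogene, Xist and Y-linked genes left out). These come to 56 genes, of which 44 were called, and some of them are not reported here. Further list members named beside them, in addition to the partners of named genes, were chosen after their values were seen. The comparison, the 27 lists, the marker lists and the rule were chosen with earlier results of these data known. Alternatives were DESeq2 1.42.0 and its size factors, limma 3.58.1 voom with quality weights, no filter, non-robust spread, the 2 groups alone, terms for sex and for title number range, and leaving out each library; fits within number range 1 to 7, of URE het Tet2 KO replicate 1 alone, of the sex libraries without the term and without the genes at 60 to 160 Mb of chromosome 2 were chosen after seeing the data.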

Additional observations from a re-analysis of the deposited data

How the results depend on the processing

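The 676 calls between compound mutants (URE het Tet2 KO) and WT stood at 540 to 696 with DESeq2 size factors, no filter, non-robust spread or without the genes of chromosome 2. They moved to 1864 with DESeq2, 5276 with limma voom, 1133 with the range term, 100 with the 2 groups alone (91 of them among the 676, 9 higher and 91 lower), 448 with the sex term, 2789 within numbers 8 to 17, 1222 within 1 to 7 (1 residual degree of freedom, so no check) and 0 for compound replicate 1 alone. Leaving out each library gave 16 to 2521. Without WT replicate 1, 2 or 3 the higher calls made up 16, 1 and 28 of 100, 16 and 128, and in voom 2537 of 5276, against 263 of 676 reported above. The interaction had 0 calls with edgeR, 1 without the filter, 151 with DESeq2, and 0 to 279 with each library left out, the 279 without compound replicate 1. Tet2 KO against WT had 12 and URE het against WT 7 with DESeq2. Of the 44 named genes called, DESeq2 and voom kept 44, the range term 37, the sex term 38, numbers 8 to 17 42, no filter 33 and the 2 groups alone 17. Without WT replicates 1, 2 and 3 they numbered 21, 4 and 20, and without compound replicates 1, 2 and 3 they numbered 44, 3 and 6. Signs turned in genes without a call. The Spi1 log2 fold change was 0.032 for compound replicate 1 alone. Tet2 was -0.12 within 1 to 7, -0.12 for that replicate alone and -0.088 without compound replicate 3, with a range of -0.088 to 0.27 over the omissions. Kit was 0.047 with voom, 0.037 without compound replicate 1 and 0.061 without WT replicate 3, with a range of -0.15 to 0.061. No cause was tested. No paired analysis was possible because title numbers are unique to each library and the replicate numbers are in accession order. Depth limits the rarest genes, whose levels of under 3 counts per library lie within counting error of 0.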

Other observations

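Some genes were also counted by family, partly with members of the lists above, and these families were picked after their values were seen and carry no test of their own. Of 20 killer lectin-like receptor genes tested, 5 fell and none rose, against 2.07% of all genes tested called lower. The median log2 fold change of the 20 was -3.77. Klra17 stood at 0.845, 0.258 and 0.121 CPM in compound mutants and at 16.3, 22.1 and 7.57 CPM in WT. The other called members were rarer in WT, such as Klra7, at 0, 0.0287 and 0.0302 CPM in compound mutants and 1.48, 1.57 and 1.55 CPM in WT. Of 12 Ms4a genes, a family of tetraspanning membrane proteins, 4 fell. Of these Ms4a1 and Ms4a2 are the calls already counted in the B lineage and mast cell lists, Ms4a4c was given above, and Ms4a6b stood at 2.79, 0.688 and 1.96 CPM in compound mutants and at 16.3, 16.5 and 12.4 CPM in WT. All 3 eosinophil-associated ribonucleases called of 4 tested fell, of which Ear2 is in the mast cell list, at 2.87, 0.229 and 0.242 CPM in compound mutants and at 26.6, 27.7 and 18.3 CPM in WT. Of 12 Toll-like receptors 3 fell, and Tlr8, a sensor of single-stranded RNA, stood at 1.65, 0.659 and 1.57 CPM in compound mutants and at 12.6, 20.3 and 9.52 CPM in WT. Of 7 Xlr genes tested 3 fell, Xlr4a, Xlr4b and Xlr4c, which are near copies of one another, so that their counts are less certain.

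Rises outside the lists included 5 of 24 glutathione transferases and peroxidases, with none lower, against 1.32% of all genes tested called higher. Gpx4, the peroxidase that guards membranes against lipid peroxides, stood at 26.3, 37 and 32 CPM in compound mutants and at 16.2, 16.4 and 19.1 CPM in WT (log2 0.88 ± 0.19, adjusted p = 0.0282), and Gpx3, its secreted relative, at 36.1, 56 and 15.9 CPM in compound mutants and at 10.6, 5.60 and 3.97 CPM in WT (log2 2.42 ± 0.56, adjusted p = 0.0336). Both metallothioneins tested rose, Mt1 to 21.7, 49.2 and 59.6 CPM in compound mutants, against 17.9, 13 and 8.64 CPM in WT, and Mt2 to 3.0, 7.91 and 9.64 CPM in compound mutants, against 0.185, 0.892 and 0.538 CPM in WT. Of 25 protocadherins 4 rose. Among these, Pcdh11x was given above, and Pcdh7 stood at 6.42, 69.2 and 37.5 CPM in compound mutants and at 3.73, 3.72 and 4.64 CPM in WT. In Pcdh18 and Pcdhgc3, also called, compound replicate 1 lay within the WT range, at 0 and 0.592 CPM. In Gpx4, Mt1 and Pcdh7 replicate 1 was the lowest of the compound libraries and lay above every WT library. Many bins of 20 Mb outside the chromosome 2 stretch left the WT range in some compound library, so leaving it was common. The bins given next are examples only. At 0 to 20 Mb of chromosome 6 the median stood at 91.8%, 124.2% and 108.7% of the WT mean in compound replicates 1, 2 and 3. At 20 to 40 Mb of chromosome 13 the median stood at 130.2%, 65.3% and 98.4% of the WT mean in compound replicates 1, 2 and 3. At 60 to 80 Mb of that chromosome it stood at 79.9%, 122.3% and 108.8%, and at 40 to 60 Mb of chromosome 15 at 100.3%, 122.0% and 112.7%. What lay behind these bins was not tested.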
